A study of Mus musculus with 10 samples.

Results

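Open chromatin at 36 imprinted genes was described in nuclei cut by laser from mouse brain and lung sections. The 36 genes were a fixed list of textbook imprinted genes in 18 loci, and a peak was taken for a gene when it overlapped the gene or lay within 5 kb of its ends, the nearest gene end deciding between several genes. This rule found 54 of the 37513 deposited peaks, at 24 of the 36 genes. The assignment used no read count, but the gene list was chosen with earlier results of these data known. The data are ATAC-seq counts, in which the transposase Tn5 inserts adapters into open DNA, so that the read count of a peak measures its accessibility. All tissue came from wild-type C57BL/6J mice, an inbred strain, with no treatment. The 4 groups were brain with 200 nuclei (n = 2), brain with 50 nuclei (n = 2), lung with 200 nuclei (n = 3) and lung with 50 nuclei (n = 3). A library of 200 nuclei pooled 10 cut areas of about 20 nuclei each, and a library of 50 nuclei pooled single nuclei. Nuclei were taken at random, so each library mixes cell types. The labels call the replicates technical and give neither age, sex nor the number of mice, so p-values measure only the spread between these libraries.

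An imprinted gene is read mainly from the copy inherited from one parent. DNA methylation laid down in the egg or the sperm marks a control region of each imprinted cluster, and the unmethylated copy of that region is the open one. Many imprinted genes act in growth before birth and in the brain, and some are imprinted in neurons only. In an inbred strain the parental copies have the same sequence, so the reads of the open and the closed copy are summed here and cannot be told apart.

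Levels are given as RPM, the reads of a peak per 1000000 reads counted over all nuclear peaks, which leaves out the mitochondrial reads that made up 93.4% to 95.8% of the counts in brain and 24.7% to 58.0% in lung. Nuclear reads numbered 319307 to 465489 in brain libraries and 340697 to 3075377 in lung libraries. In the brain libraries and the shallowest lung library a level of 3 RPM is about 1 read. Lung libraries 2 and 3 of 50 nuclei stood apart, with reads in 36 and 27 of the 54 imprinted peaks, where each of the other 8 libraries had reads in 49 to 54. They also had reads in only 60.9% and 56.1% of all nuclear peaks. Peaks at 9 neuronal marker genes, such as Syt1, Snap25 and Rbfox3, summed to 311.5 to 426 RPM in brain and 21.9 to 99.8 RPM in lung. Those at 8 endothelial marker genes summed to 372 to 577 RPM in brain and 1248 to 1850 RPM in lung, and those of 10 lung epithelial and mesenchymal genes to 233 to 293 RPM in brain and 760 to 1183 RPM in lung (Sftpc had no peak). Oligodendrocyte markers summed to 256 to 397 RPM in brain and 129 to 287 RPM in lung, and astrocyte markers to 49.3 to 98.8 RPM in brain and 49.8 to 107.5 RPM in lung. In tissue mixtures of this kind, more cells of a type and more open chromatin per cell cannot be told apart, and the part of these markers in the differences below was not tested.

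The Peg3 domain carried the clearest tissue difference among the imprinted loci. Peaks of Peg3 and Zim1 were more open in brain, and the summed signal of Peg3 was 2.94 times as high there as in lung. A peak in Meg3, a small peak in Ndn and a small peak in Inpp5f were also higher in brain, and 1 peak inside Trappc9 was higher in lung. In all, 7 peaks at 5 genes were higher in brain (12.96% of the 54 peaks, against 5.76% of all 37466 peaks tested) and 1 peak was higher in lung (1.85%, against 4.39% of all peaks), by edgeR's quasi-likelihood test at a Benjamini-Hochberg adjusted p of 0.05. The other 46 peaks passed in neither direction. All 54 imprinted peaks entered the test.

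At an unadjusted p of 0.05, 13 of the 54 imprinted peaks were higher in brain and 4 of the 54 in lung, where 13.8% and 11.4% of all peaks were. Across the 54 peaks the log2 fold of brain over lung was positive at 33 and negative at 21, with a median of 0.38 against 0.07 over all peaks tested. Every brain library lay above every lung library at 8 imprinted peaks (14.8%, against 8.4% of all peaks), and every lung library above every brain library at 3 (against 4.94% of all peaks). The number of imprinted peaks called higher in brain changed when 1 library was dropped, as did the share of all peaks. In the runs below, imprinted peaks are given as counts out of 54 and all peaks as percentages, so the figures are on unlike scales. A count of 7 is 12.96% of the 54. Without lung library 1, 2 or 3 of 50 nuclei it was 13, 7 or 10, with 13.99%, 7.13% or 8.84% of all peaks higher in brain. Without lung library 1, 2 or 3 of 200 nuclei it was 5, 2 or 3 (3.83%, 3.46% or 3.09% of all peaks). Without brain library 1 or 2 of 50 nuclei it was 2 or 3 (2.62% or 2.54%), and without brain library 1 or 2 of 200 nuclei 2 or 3 (2.34% or 2.97%).

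**Figure D1:**
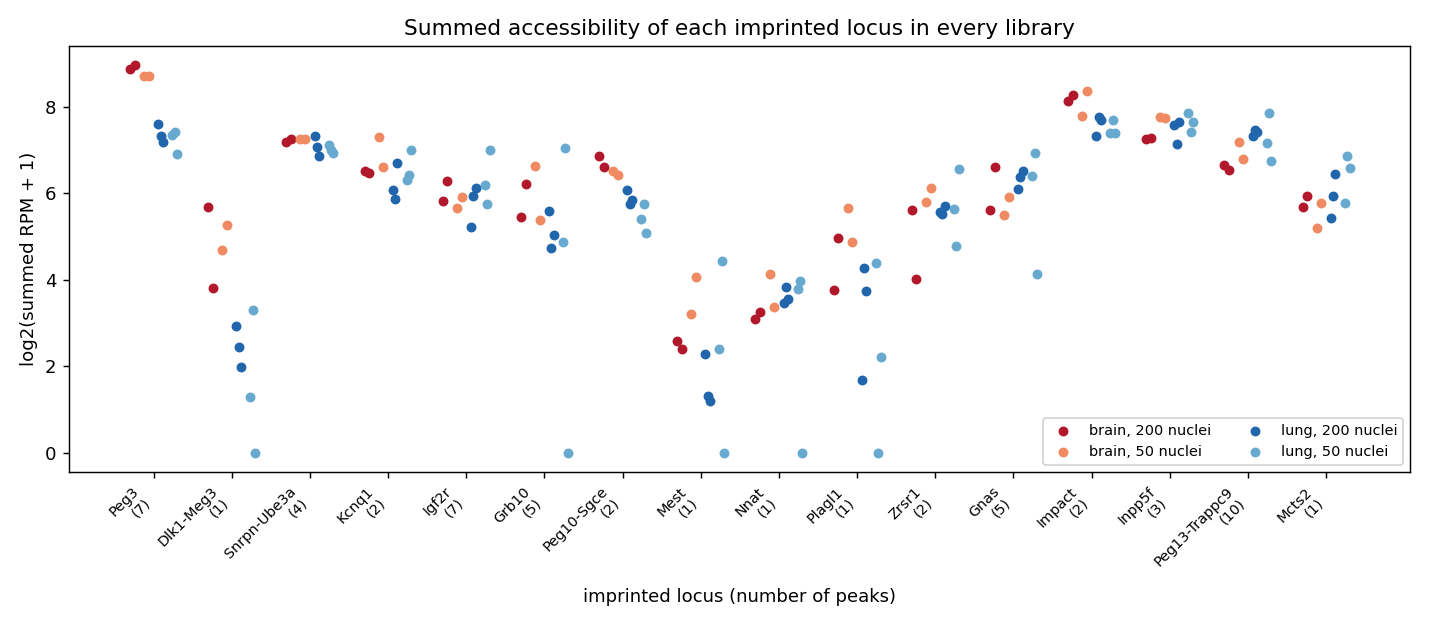
Summed accessibility of each imprinted locus with a peak, as log2(summed RPM + 1), with 1 point per library and the number of peaks of each locus in brackets. The 4 brain libraries of the Peg3 locus, at 419 to 496 RPM, lie above the 6 lung libraries, at 119 to 195 RPM, and the groups overlap at most other loci.

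The 54 peaks resembled the whole table in size and level. Their median width was 167.5 bp against 164 bp for all nuclear peaks, and their median level was 13.3 RPM against 13.1 RPM. Of the 54, 23 had their centre within 1000 bp of a gene end (42.6%, against 36.8% of all nuclear peaks) and 31 lay in gene bodies (57.4%, against 35.0%). A total of 12 peaks overlapped an annotated start of their gene. Reads were present in all 10 libraries at 17 of the 54 peaks (31.5%, against 35.0% of nuclear peaks). The RefSeq table of GRCm38.p6, the assembly also called mm10, gave the gene models.

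No peak was assigned to 12 of the 36 genes. At chromosome 12 these were Dlk1, a membrane ligand related to the Notch ligands, Rtl1, a retrotransposon-derived gene needed in the placenta, and the RNA genes Rian and Mirg, which host small nucleolar RNAs and microRNAs. At the Snrpn locus they were Magel2, of the same protein family as Ndn, and Mkrn3, a RING finger gene. The others were the growth factor Igf2, the noncoding RNA H19, Phlda2, which restrains placental growth, Mest, Nespas, the antisense RNA of Gnas, and Rasgrf1, a Ras exchange factor. The nearest peak of any kind lay 8929 bp from Rasgrf1, 16855 bp from Nespas, 41956 bp from H19, 79625 bp from Dlk1 and 117194 bp from Igf2. The peak near Rasgrf1 averaged 3.91 RPM in brain and 7.66 RPM in lung and lay outside the 5 kb limit. The loci H19-Igf2 and Rasgrf1 therefore hold no value here, which at this depth does not show that they were closed.

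Promoter sequence windows from RefSeq (GRCm38.p6, 250 bases before to 50 bases after an annotated start) were held for 27 of the 36 genes, as 40 windows. Rtl1, Cdkn1c, H19, Peg10, Sgce, Nespas, Impact, Peg13 and Trappc9 had no entry. A peak overlapped 15 of the 40 windows (37.5%, against 34.4% of 32851 windows of all genes). The median number of CpG dinucleotides was 14.5 in the 40 windows and 7 in all windows. Over the windows that a peak overlapped it was 20 for the imprinted genes and 22 for all genes. The letters TGCCGC, bound when methylated by ZFP57, the zinc finger protein that keeps imprints in the early embryo, occurred on either strand in 11 of the 40 windows (27.5%, against 11.6% of all windows). Genes with several starts gave several windows, and overlapping Mest windows share their matches, so the windows are not independent. Among windows with a peak, TGCCGC occurred in 5 of 15 (33.3%) for the imprinted genes and in 21.4% for all genes. The Copg2 window is among these 5, and the peak that covers it was counted at Tsga13. Of the other motifs searched on both strands, AANATGGC (YY1) occurred in 2 windows (5%, against 6.05%), the core of the NRF1 motif in 1 (2.5%, against 4.60%) and the core of the CTCF motif in none of the 40 (0.0365% of all windows). Matches of YY1 or CTCF can share bases with a TGCCGC match. Matches were counted anywhere in a window, so a match in a window with a peak can lie outside the peak, as at Zim1. A match describes letters and does not show binding.

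Peg3, named for its paternal expression, encodes a zinc finger transcription factor, and its start region with the beginning of the first intron is the control region of the domain. Usp29, a ubiquitin-specific protease gene, is read from the same region in the opposite direction and from the paternal copy, and Zim1, another zinc finger gene, is read from the maternal copy. The windows at the starts of Peg3 (chr7:6730370-6730669, minus strand) and Zim1 (chr7:6696383-6696682, minus strand) are shown because a peak higher in brain covers part of each. Each is written 5′ to 3′ along its gene, with the bases inside that peak in capitals.
Peg3: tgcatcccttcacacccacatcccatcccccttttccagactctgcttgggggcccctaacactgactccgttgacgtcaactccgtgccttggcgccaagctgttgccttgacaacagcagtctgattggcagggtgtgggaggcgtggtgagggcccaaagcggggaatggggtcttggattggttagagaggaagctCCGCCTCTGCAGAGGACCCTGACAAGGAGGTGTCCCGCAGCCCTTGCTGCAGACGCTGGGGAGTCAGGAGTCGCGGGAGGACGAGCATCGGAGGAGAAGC
Zim1: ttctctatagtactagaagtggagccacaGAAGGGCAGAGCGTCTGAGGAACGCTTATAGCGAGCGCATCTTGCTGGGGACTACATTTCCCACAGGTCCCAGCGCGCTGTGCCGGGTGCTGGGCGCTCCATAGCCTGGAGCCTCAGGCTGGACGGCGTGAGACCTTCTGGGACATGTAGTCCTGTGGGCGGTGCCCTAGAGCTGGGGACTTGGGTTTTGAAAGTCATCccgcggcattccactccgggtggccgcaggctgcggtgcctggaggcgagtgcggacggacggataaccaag
The Peg3 window holds 13 CpG and 100 bases of the peak, which run through the annotated start. The Zim1 window holds 20 CpG, 199 bases of the peak and 1 TGCCGC match, which is on the opposite strand and lies outside the peak.

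Peg3 had 5 peaks, numbered here along the chromosome, and the fifth and last covers its start. Peak 3 (chr7:6728267-6729019), which is 752 bp wide and lies 1400 bp from the start, had the highest level of the 5. It had 246 and 269 RPM in the brain libraries of 200 nuclei and 199.8 and 238 RPM in those of 50 nuclei. In lung its lowest, median and highest values were 56.6, 68.5 and 105 RPM, so every brain library lay well above every lung library. The means were 238 ± 28.6 RPM in brain and 76.2 ± 20.3 RPM in lung (SD, n = 4 and 6), a log2 fold of 1.68 ± 0.24 (SE, adjusted p = 1.17e-05).

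Peak 5 of Peg3 (chr7:6730358-6730469, 111 bp), at the start itself, had 50.1 and 27.9 RPM in brain with 200 nuclei and 49.3 and 56.4 RPM with 50 nuclei. In lung it ranged over 0, 1.138 and 4.27 RPM (lowest, median and highest), and 3 of the 6 lung libraries had no read in it. The level was near 0 in lung and well above it in each brain library, with a log2 fold of 4.56 ± 0.82 (adjusted p = 0.000264) resting on 69 brain and 15 lung reads. It also lies next to the start of Usp29, whose promoter window holds the whole peak, so the genes cannot be told apart at this peak.

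Peak 1 of Peg3 (chr7:6727779-6728005, 226 bp), 2414 bp from the start, had 67.7 and 58.0 RPM in brain with 200 nuclei and 54.7 and 21.9 RPM with 50 nuclei, against 0, 9.81 and 21.3 RPM as the lowest, median and highest values in lung. The lowest brain library, the second of 50 nuclei, was only just above the highest lung library. The log2 fold was 2.26 ± 0.63 (adjusted p = 0.0158). The call ended without lung library 2 of 200 nuclei (adjusted p = 0.0521), brain library 1 of 50 nuclei (0.194), or brain library 1 (0.109) or 2 (0.0797) of 200 nuclei.

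The difference did not pass at every peak of the Peg3 start region. Peak 4 (chr7:6729486-6729652), which lies between peaks 3 and 5, 767 bp from the start, had 25.1, 47.3, 32.8 and 68.9 RPM in the brain libraries and 22.7, 31.0 and 85.1 RPM as the lowest, median and highest values in lung. The groups overlapped fully, at means of 43.5 ± 19.3 RPM in brain and 39.2 ± 23.0 RPM in lung and a log2 fold of 0.21 ± 0.45 (adjusted p = 0.811). Per 100 bp, peak 4 averaged 26.2 RPM in brain and 23.6 RPM in lung, against 31.7 and 10.1 RPM for peak 3 and 41.4 and 1.40 RPM for peak 5 (brain and lung). It was thus below both neighbours in mean level per length in brain, and above both in lung. Peak 2, which begins 1 bp after peak 1 ends, averaged 11.6 ± 5.51 RPM in brain and 5.57 ± 8.22 RPM in lung and did not pass (log2 fold 1.28 ± 1.03, adjusted p = 0.461). Whether the folds of neighbouring peaks differ from each other was not tested.

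**Figure D2:**
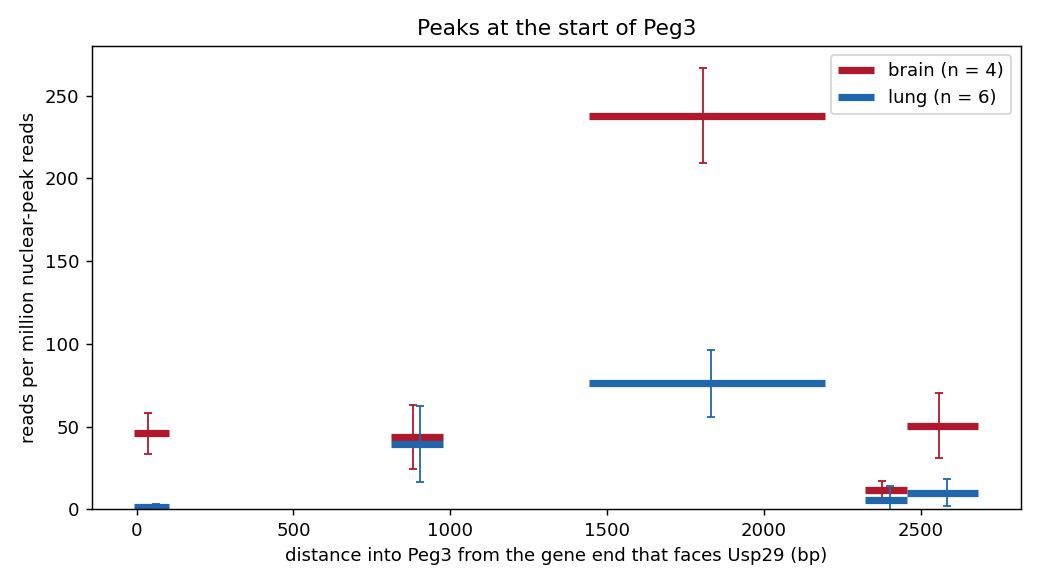
Mean accessibility of the 5 Peg3 peaks in brain (n = 4) and lung (n = 6), in RPM, against the distance into the gene from the end that faces Usp29, in bp. Thick bars span each peak at its mean and thin bars show the SD; brain is higher at the peak that covers the start (45.9 RPM against 1.55 RPM) and at the 752 bp peak (238 against 76.2 RPM), and the groups overlap at the peak between them (43.5 against 39.2 RPM).

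Summed over its 5 peaks, Peg3 reached 348 to 421 RPM in brain and 108 to 164 RPM in lung, with no overlap. The means were 390 ± 30.8 RPM in brain and 133 ± 20.8 RPM in lung, a log2 fold of 1.40 ± 0.16 in the test of gene sums (adjusted p = 5.14e-05 over 12676 genes). Zim1 (chr7:6696455-6696653, 23 bp from its start) had 60.2, 58.0, 52.0 and 28.2 RPM in the brain libraries, against 0, 6.18 and 31.0 RPM as the lowest, median and highest values in lung. Brain library 2 of 50 nuclei overlapped the highest lung library, the first of 200 nuclei, and the other brain libraries lay above it. The means were 49.6 ± 14.7 RPM in brain and 10.8 ± 11.7 RPM in lung, and the log2 fold was 2.15 ± 0.64 (adjusted p = 0.0261). The call ended without lung library 2 (adjusted p = 0.0793) or 3 (0.0836) of 200 nuclei and without any 1 of the 4 brain libraries (0.0622 without the second of 50 nuclei, 0.182 without the first, 0.128 and 0.116 without the first and second of 200 nuclei). As a gene sum Zim1 did not pass (log2 fold 2.02 ± 0.71, adjusted p = 0.0727).

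The only peak of Usp29 (chr7:6826106-6826289) lay 95523 bp inside the gene, far from the shared start, and averaged 10.3 ± 9.31 RPM in brain and 14.4 ± 9.65 RPM in lung (log2 fold -0.50 ± 0.90, adjusted p = 0.768). It was the 1 negative fold among the 7 peaks of the domain. The 7 peaks together covered 1771 bp and summed to 450 ± 37.6 RPM in brain and 158 ± 25.5 RPM in lung.

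**Figure D3:**
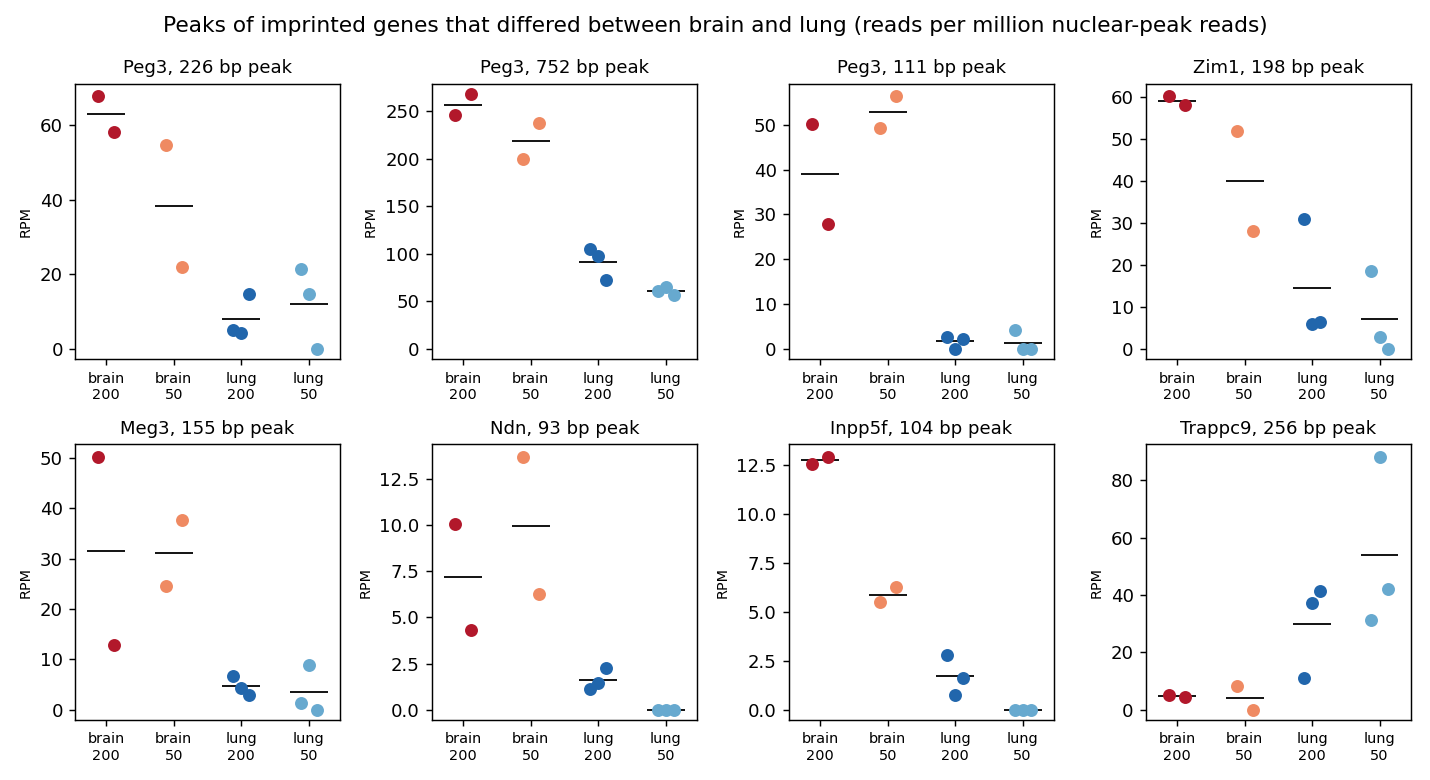
RPM of the 8 peaks that passed the brain against lung test, with 1 point per library, in brain with 200 nuclei, brain with 50 nuclei, lung with 200 nuclei and lung with 50 nuclei, and a bar at each group mean. At 7 peaks the brain libraries are the higher ones, and at the 256 bp Trappc9 peak the lung libraries are, at 11.1 to 88.1 RPM against 0 to 8.21 RPM in brain.

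Meg3 is a long noncoding RNA read from the maternal copy of the Dlk1-Meg3 cluster, and it held the only peak of that cluster (chr12:109542961-109543116, 155 bp, 1965 bp from an annotated start). The peak had 50.1 and 12.9 RPM in brain with 200 nuclei and 24.6 and 37.6 RPM with 50 nuclei, against 0, 3.66 and 8.81 RPM as the lowest, median and highest values in lung. The groups did not overlap, though the brain libraries varied widely among themselves. The means were 31.3 ± 16.1 RPM in brain and 4.03 ± 3.29 RPM in lung, a mean ratio of 7.76, with a log2 fold of 3.07 ± 0.86 (adjusted p = 0.0177) on 47 brain and 31 lung reads. As a gene sum, Meg3 also passed (log2 fold 2.90 ± 0.82, adjusted p = 0.0266). The peak's call ended without brain library 1 of 200 nuclei (adjusted p = 0.225), brain library 1 (0.0604) or 2 (0.122) of 50 nuclei, or lung library 2 (0.0535) or 3 (0.0654) of 200 nuclei. The gene sum lost its call without any of these and without lung library 1 of 200 nuclei, at adjusted p between 0.0516 and 0.224.

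The Snrpn-Ube3a cluster, deleted or disrupted in Prader-Willi and Angelman syndromes in humans, held 4 peaks at 3 of its 5 genes. Ndn, an intronless gene for a MAGE family protein found in neurons, had a peak over its start and another beyond it. The window of the Ndn start (chr7:62348027-62348326, plus strand) is shown because the peak over the start opens inside it, with the bases of that peak in capitals.
Ndn: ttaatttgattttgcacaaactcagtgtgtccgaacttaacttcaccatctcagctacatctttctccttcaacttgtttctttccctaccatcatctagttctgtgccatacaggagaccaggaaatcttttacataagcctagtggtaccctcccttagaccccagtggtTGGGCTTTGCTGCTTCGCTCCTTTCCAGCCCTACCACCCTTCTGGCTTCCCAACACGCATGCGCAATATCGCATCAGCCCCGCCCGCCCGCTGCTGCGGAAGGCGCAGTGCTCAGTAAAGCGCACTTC
This window holds 11 CpG, and 128 of its bases lie in the peak.

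The start peak of Ndn (chr7:62348199-62348327) had 30.1, 12.9, 10.9 and 3.13 RPM in the brain libraries, against 0, 1.60 and 12.8 RPM as the lowest, median and highest values in lung, where the highest was library 1 of 50 nuclei. The groups overlapped, and the difference did not pass (log2 fold 1.91 ± 1.06, adjusted p = 0.256). It did pass without that lung library, at a log2 fold of 4.61. Only lung libraries 2 and 3 of 50 nuclei then remained in that group, both without a read there. The fold of 4.61 thus depends on the prior count of the fit, and 13.99% of all peaks were then higher in brain. The other Ndn peak (chr7:62348922-62349015, 93 bp), 645 bp from the start, had 10.0 and 4.30 RPM in brain with 200 nuclei and 13.7 and 6.26 RPM with 50 nuclei, against 0, 0.554 and 2.28 RPM in lung. Every brain library had reads, every lung library of 50 nuclei had none, and the groups did not overlap. The log2 fold was 4.06 ± 1.30 (adjusted p = 0.0385), but on 13 brain and 11 lung reads, and with 1 whole group at 0 this fold depends on the prior count of the fit. The call ended without any 1 of the 7 libraries other than the lung libraries of 50 nuclei, at adjusted p of 0.0681 to 0.157. It also ended without both sparse lung libraries of 50 nuclei (0.0651) and in a fit of tissue and size without their interaction (0.0869).

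Ube3a, a ubiquitin ligase gene read from the maternal copy in neurons and from both copies in most other cells, had a 682 bp peak over its start (chr7:59228448-59229130) with overlapping levels in brain and lung. It had 80.2, 128.9, 115 and 135 RPM in the brain libraries and 108, 121 and 152 RPM as the lowest, median and highest values in lung. The groups overlapped and the log2 fold was -0.10 ± 0.26 (adjusted p = 0.84). Snrpn, which encodes a splicing protein of the brain and heart and whose start lies in the control region, had 1 weak peak (chr7:60244342-60244444) 104117 bp from an annotated start, at 11.6 ± 9.38 RPM in brain and 3.20 ± 2.77 RPM in lung (log2 fold 1.75 ± 1.05, adjusted p = 0.301). It passed without lung library 1 of 50 nuclei, at a log2 fold of 3.90. The lung libraries of 50 nuclei left in that fit had no read at the peak, and 13.99% of all peaks were then higher in brain. No Snrpn promoter window held a peak.

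Inpp5f, a phosphoinositide phosphatase gene with a paternal transcript in brain, had neighbouring peaks of which 1 passed the test. The 495 bp peak over its start (chr7:128610925-128611420) averaged 31.6 RPM per 100 bp in brain and 35.0 RPM per 100 bp in lung, and by this mean per length it was the highest imprinted peak in lung but not in brain, where Peg3 peaks 5 and 3 were higher or level. It had 125, 112, 199.8 and 188 RPM in the brain libraries and 131, 176 and 219 RPM as the lowest, median and highest values in lung, and the groups overlapped (log2 fold -0.19 ± 0.24, adjusted p = 0.654). The 104 bp peak that follows it (chr7:128611439-128611543, 74 bp from the start) had 12.5, 12.9, 5.47 and 6.26 RPM in the brain libraries, against 0, 0.366 and 2.77 RPM in lung. No lung library reached the lowest brain library, and the lung libraries of 50 nuclei had no read. The log2 fold was 4.07 ± 1.32 (adjusted p = 0.0413) on 15 brain and 11 lung reads, with the same limit as at Ndn. This call too ended without any 1 of the 4 brain libraries or the 3 lung libraries of 200 nuclei, at adjusted p of 0.0620 to 0.138, without both sparse lung libraries (0.0619) and in the fit without the interaction (0.0639). The third Inpp5f peak, 11258 bp inside the gene, averaged 18.1 ± 8.68 RPM in brain and 14.6 ± 4.13 RPM in lung (adjusted p = 0.836).

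Trappc9, a gene for a subunit of a vesicle-trafficking complex, is read mainly from the maternal copy in mouse brain, and the paternal noncoding RNA Peg13 lies inside it on chromosome 15. Trappc9 was the 1 imprinted gene with a peak higher in lung, and held 8 peaks. Peak 8 (chr15:73045188-73045444, 256 bp, 15794 bp from the gene end on the higher coordinate) had 5.01 and 4.30 RPM in brain with 200 nuclei and 8.21 and 0 RPM with 50 nuclei. In lung its lowest, median and highest values were 11.1, 39.3 and 88.1 RPM, and each lung library exceeded each brain library. The means were 4.38 ± 3.38 RPM in brain and 41.8 ± 25.4 RPM in lung, with a log2 fold of -3.09 ± 0.74 (adjusted p = 0.0051) on 7 brain and 273 lung reads. The call ended without brain library 2 of 50 nuclei (adjusted p = 0.0578) and held without any other single library.

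Several other peaks inside Trappc9 were low in brain without passing the test. Peaks 2, 4 and 5 averaged 3.32 ± 1.49, 3.66 ± 4.29 and 1.32 ± 1.58 RPM in brain and 17.8 ± 9.32, 24.5 ± 15.3 and 15.2 ± 12.96 RPM in lung. Their log2 folds were -2.36 ± 0.99, -2.58 ± 0.99 and -3.13 ± 1.27 (adjusted p = 0.123, 0.0893 and 0.11). At peaks 2 and 5 the groups did not overlap, but by less than 1 read of a brain library. The highest brain and lowest lung values were 5.473 and 5.477 RPM at peak 2, and 3.13 and 3.58 RPM at peak 5. Peak 7 (chr15:73022991-73023139) ran the other way, with 35.1, 10.7, 32.8 and 28.2 RPM in the brain libraries and 0, 6.42 and 9.95 RPM as the lowest, median and highest values in lung. Brain lay above lung in each library of peak 7, yet the difference did not pass (log2 fold 2.23 ± 0.86, adjusted p = 0.0923). Whether peaks 7 and 8 differ in fold was not tested.

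Summed over 8 peaks, Trappc9 had 43.0 to 82.1 RPM in brain and 76.7 to 217 RPM in lung, with 2 positive and 6 negative peak folds. The means of 59.9 ± 16.4 RPM in brain and 128 ± 48.2 RPM in lung gave a log2 fold of -1.27 ± 0.31 (adjusted p = 0.0108), though the ranges overlapped. The gene sum lost its call without brain library 2 of 50 nuclei (adjusted p = 0.0733) or brain library 2 of 200 nuclei (0.0667). Peg13 itself, at its stronger peak (chr15:72809920-72810204), had 42.6, 38.7, 30.1 and 34.4 RPM in the brain libraries and 14.7, 26.8 and 39.3 RPM as the lowest, median and highest values in lung. These overlapped, and the log2 fold of 0.41 ± 0.49 did not pass (adjusted p = 0.632).

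**Figure D4:**
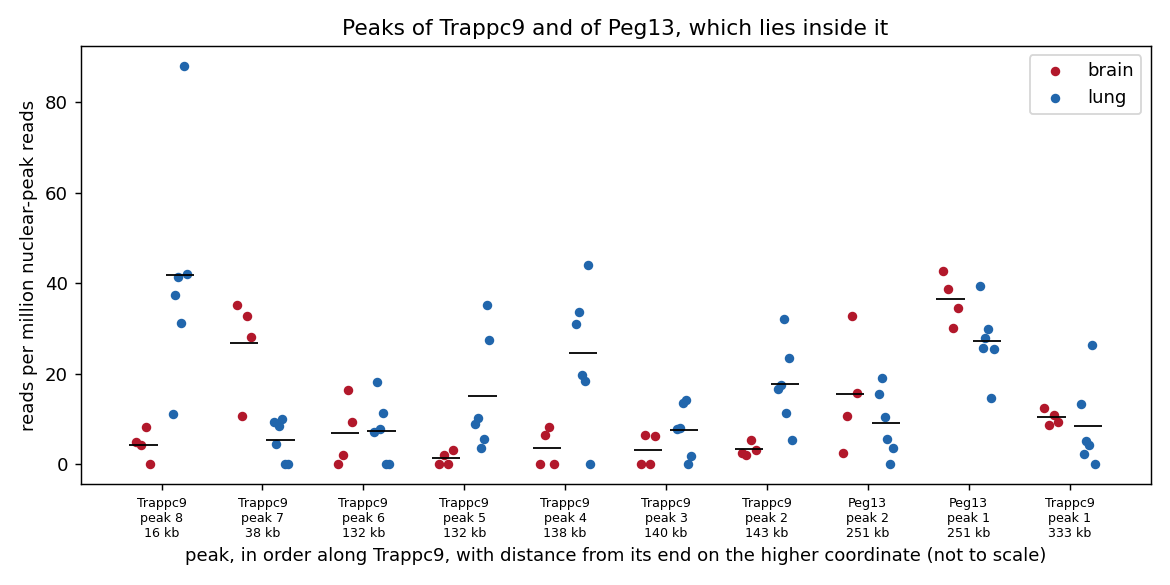
RPM of the peaks of Trappc9 and Peg13 in every library, in order along Trappc9 from its end on the higher coordinate (positions not to scale), with a bar at each tissue mean. Peak 8 is high in lung (mean 41.8 RPM) and low in brain (4.38 RPM), and peak 7 is the reverse, at 26.7 RPM in brain and 5.37 RPM in lung.

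Peg10, a retrotransposon-derived gene needed in the placenta, and Sgce, the gene for the dystrophin-linked protein epsilon-sarcoglycan, face each other on chromosome 6 and are both read from the paternal copy. Sgce (chr6:4747066-4747218) had 27.6, 19.3, 10.9 and 28.2 RPM in the brain libraries and 0, 4.67 and 10.7 RPM as the lowest, median and highest values in lung. The groups were separated by a narrow margin, and the log2 fold of 2.27 ± 0.93 did not pass (adjusted p = 0.113). It passed in DESeq2 and in edgeR without lung library 1 of 50 nuclei. In the latter run the remaining lung libraries of 50 nuclei had no read at Sgce, and 13.99% of all peaks were higher in brain. Peg10 (chr6:4749091-4749448) had 87.8, 77.3, 79.4 and 56.4 RPM in the brain libraries and 32.9, 47.4 and 57.6 RPM in lung, overlapping only at the ends (log2 fold 0.75 ± 0.34, adjusted p = 0.16). Together the pair of peaks summed to 84.6 to 115 RPM in brain and 32.9 to 66.5 RPM in lung.

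Plagl1, a zinc finger transcription factor that restrains cell proliferation, and Kcnq1ot1, a noncoding RNA that silences its neighbours in cis, each had a peak at the annotated start. Their windows (Plagl1, chr10:13090582-13090881, plus strand; Kcnq1ot1, chr7:143296498-143296797, minus strand) are shown because these starts are known imprint control regions and the peaks cover most or all of them. Capitals mark the bases inside the peak.
Plagl1: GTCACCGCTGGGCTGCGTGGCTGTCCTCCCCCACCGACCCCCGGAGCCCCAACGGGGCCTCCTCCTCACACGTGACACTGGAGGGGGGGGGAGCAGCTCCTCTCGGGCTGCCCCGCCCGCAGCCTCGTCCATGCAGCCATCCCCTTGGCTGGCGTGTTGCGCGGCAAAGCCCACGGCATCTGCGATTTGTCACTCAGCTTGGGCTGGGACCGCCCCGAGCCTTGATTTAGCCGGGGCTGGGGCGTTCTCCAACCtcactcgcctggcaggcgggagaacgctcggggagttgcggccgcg
Kcnq1ot1: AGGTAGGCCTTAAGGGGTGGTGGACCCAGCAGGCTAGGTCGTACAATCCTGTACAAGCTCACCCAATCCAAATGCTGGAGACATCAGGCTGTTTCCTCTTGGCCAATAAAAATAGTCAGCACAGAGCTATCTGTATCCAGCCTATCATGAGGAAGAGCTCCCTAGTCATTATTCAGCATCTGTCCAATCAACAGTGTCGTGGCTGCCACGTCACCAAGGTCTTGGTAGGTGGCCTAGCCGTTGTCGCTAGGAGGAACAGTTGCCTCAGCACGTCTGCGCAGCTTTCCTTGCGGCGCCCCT
The Plagl1 window holds 26 CpG and 1 TGCCGC match, and the Kcnq1ot1 window 9 CpG.

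Plagl1 (chr10:13090548-13090835) had 12.5, 30.1, 49.3 and 28.2 RPM in the brain libraries and 0, 8.004 and 19.9 RPM as the lowest, median and highest values in lung. Brain library 1 of 200 nuclei fell inside the lung range, and the log2 fold was 1.53 ± 0.76 (adjusted p = 0.204). Plagl1 gained a call only without lung library 1 of 50 nuclei (log2 fold 2.70), a run in which 13.99% of all peaks were higher in brain. Kcnq1ot1 (chr7:143296478-143296819) had 62.7, 60.2, 109.5 and 62.6 RPM in the brain libraries and 32.9, 53.9 and 64.6 RPM in lung. Brain library 1 of 50 nuclei was high and the rest overlapped the lung range (log2 fold 0.55 ± 0.34, adjusted p = 0.318). Cdkn1c, a cyclin-dependent kinase inhibitor in the same cluster read from the maternal copy, had a start-side peak (chr7:143461024-143461287) at 34.1 ± 8.85 RPM in brain and 35.7 ± 19.4 RPM in lung, with a log2 fold of -0.07 ± 0.48 (adjusted p = 0.948).

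Impact, which encodes an inhibitor of the translational control kinase Gcn2 and is paternally expressed, had the widest imprinted peak. That peak (chr18:12973658-12974480, 822 bp) had 178, 241, 134 and 219 RPM in the brain libraries and 71.2, 143 and 161 RPM as the lowest, median and highest values in lung. Brain library 1 of 50 nuclei lay within the lung range, and the log2 fold was 0.54 ± 0.25 (adjusted p = 0.177). The 489 bp peak beside it averaged 90.7 ± 17.4 RPM in brain and 52.1 ± 23.4 RPM in lung (log2 fold 0.83 ± 0.33, adjusted p = 0.106). Their sum was 284 ± 47.0 RPM in brain and 187 ± 25.2 RPM in lung, and as a gene sum it did not pass (log2 fold 0.44 ± 0.18, adjusted p = 0.119). The groups were separated only narrowly, at a lowest brain value of 218.9 RPM and a highest lung value of 215.9 RPM.

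The remaining loci did not pass in either direction. Igf2r, a receptor that clears Igf2, and Airn, the antisense noncoding RNA that silences it, held 7 peaks between them. The highest of the 3 Igf2r peaks (chr17:12769569-12769784), over the start, averaged 11.5 ± 8.79 RPM in brain and 5.43 ± 4.25 RPM in lung (log2 fold 1.20 ± 1.02, adjusted p = 0.486). The Airn peak with the highest mean over all libraries (chr17:12779626-12779765) averaged 6.62 ± 5.26 RPM in brain and 23.0 ± 33.6 RPM in lung, where library 3 of 50 nuclei alone had 91.3 RPM and the other 5 had 5.12 to 14.6 RPM (log2 fold -1.45 ± 0.89, adjusted p = 0.313). The Airn peak over the start (chr17:12741226-12741360) averaged 13.04 ± 6.68 RPM in brain, the most of the 4 Airn peaks there, and 14.3 ± 4.68 RPM in lung (log2 fold -0.19 ± 0.80, adjusted p = 0.911). Grb10, an adaptor protein that dampens insulin signalling and is read from the paternal copy in neurons and the maternal copy elsewhere, had 5 peaks. The highest by its mean over all 10 libraries (chr11:11973461-11973630) averaged 18.1 ± 6.35 RPM in brain and 15.0 ± 17.2 RPM in lung (log2 fold 0.39 ± 0.83, adjusted p = 0.809). The highest in brain alone, peak 1 (chr11:11932505-11932738), had 2.51, 27.9, 32.8 and 21.9 RPM in the brain libraries and 0, 1.42 and 12.7 RPM as the lowest, median and highest values in lung. Brain library 1 of 200 nuclei lay inside the lung range, and the log2 fold of 2.85 ± 1.06 did not pass (adjusted p = 0.0795).

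Gnas, which encodes the stimulatory G protein alpha subunit, held 5 peaks, and the highest by its mean over all libraries (chr2:174344062-174344392) averaged 16.1 ± 12.6 RPM in brain and 26.1 ± 13.3 RPM in lung (log2 fold -0.70 ± 0.72, adjusted p = 0.57). The highest in brain alone (chr2:174329915-174330157), over an annotated start, averaged 21.4 ± 11.9 RPM in brain and 16.1 ± 8.07 RPM in lung (log2 fold 0.44 ± 0.74, adjusted p = 0.75). Zrsr1, a splicing factor relative, had a peak over its start (chr11:22971899-22972134) at 28.5 ± 12.3 RPM in brain and 32.0 ± 13.9 RPM in lung (log2 fold -0.19 ± 0.52, adjusted p = 0.854). Mcts2, an intronless gene inside H13, had a peak over its start (chr2:152686796-152687213) at 49.8 ± 10.4 RPM in brain and 75.3 ± 27.7 RPM in lung (log2 fold -0.55 ± 0.35, adjusted p = 0.326). Nnat, a small membrane protein of the endoplasmic reticulum known from the developing brain, averaged 10.5 ± 4.03 RPM in brain and 10.2 ± 5.29 RPM in lung (chr2:157561278-157561415, log2 fold 0.02 ± 0.94, adjusted p = 0.995). Copg2, a coat protein gene beside Mest, averaged 8.29 ± 5.20 RPM in brain and 5.24 ± 7.67 RPM in lung (chr6:30896504-30896598, log2 fold 0.86 ± 1.06, adjusted p = 0.647). A stronger peak that also touches Copg2 lies nearer Tsga13 and was counted there, at 65.9 ± 8.35 RPM in brain and 45.9 ± 20.1 RPM in lung.

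**Figure D5:**
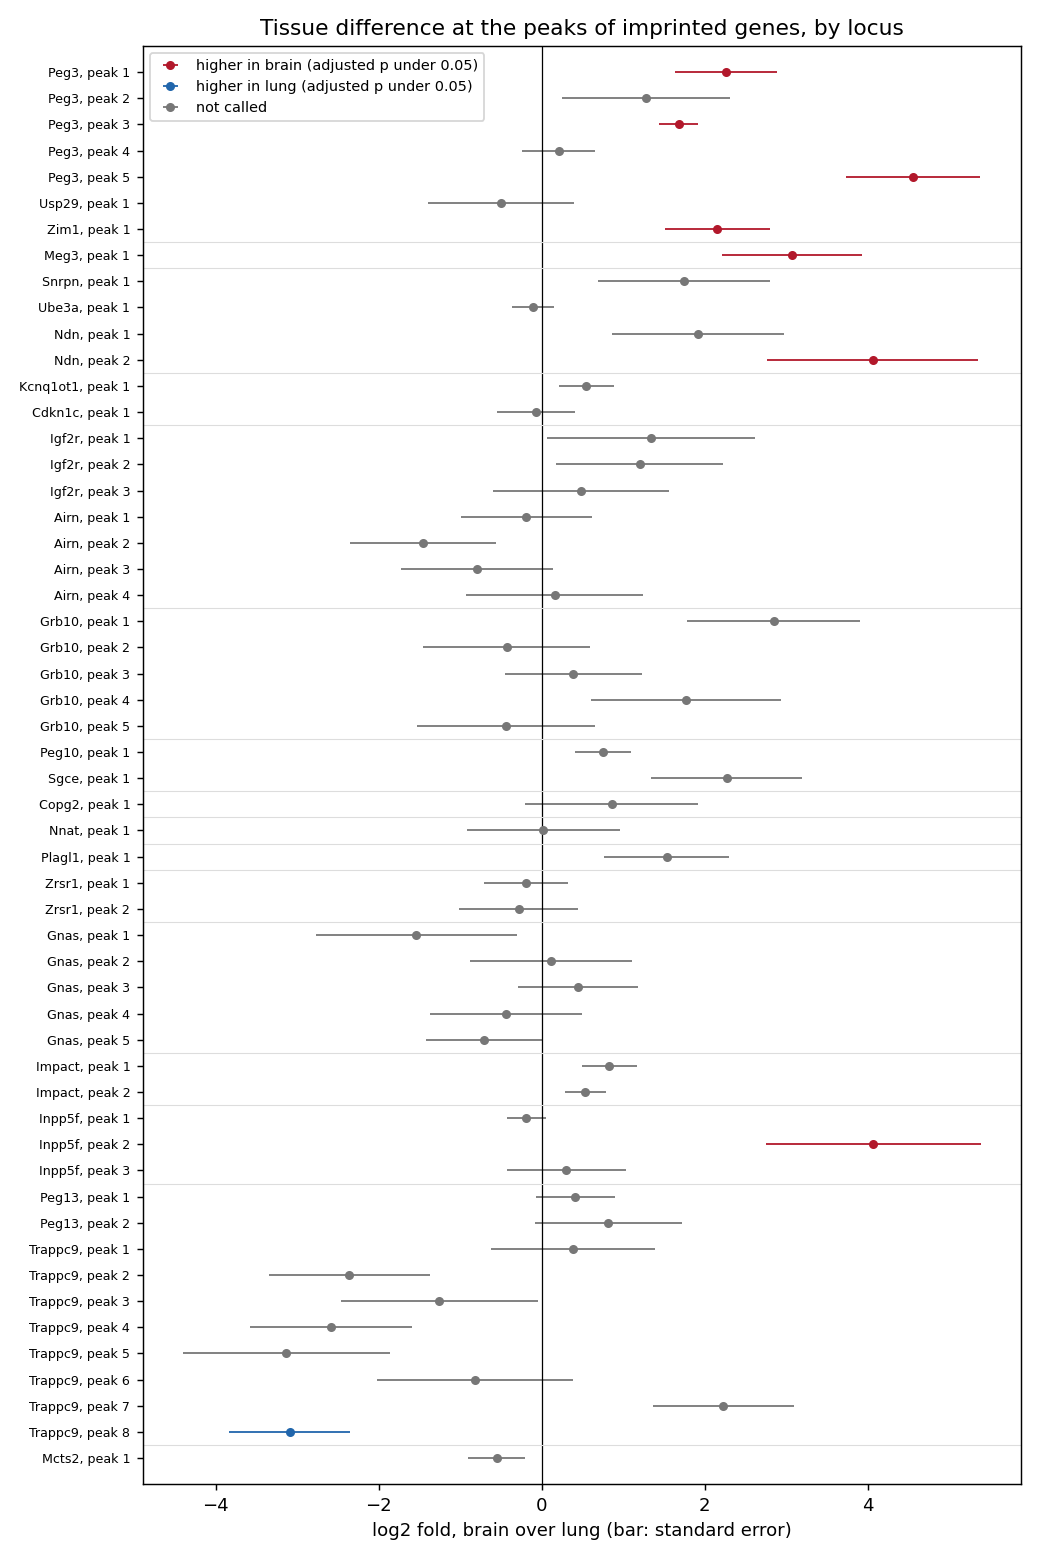
The log2 fold of brain over lung with its standard error for each of the 54 peaks, grouped by locus. The 8 peaks that passed are marked. The Trappc9 peaks run from -3.13 to 2.23 within 1 gene, and 5 of the 5 Peg3 folds are positive.

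Grouped by the expressed copy listed for each gene, the 28 peaks at 15 paternally expressed genes gave 5 peaks higher in brain and none higher in lung, with a median log2 fold of 0.54. Of these 5, 3 were peaks of the same gene, Peg3, 1 was the small Ndn peak and 1 the small Inpp5f peak. The 16 peaks at 7 maternally expressed genes gave 2 higher in brain and 1 higher in lung, with a median of 0.16. The 10 peaks of Grb10 and Gnas, which differ by tissue or transcript, gave none in either direction and a median of -0.16. Every other gene kept its listed copy for all its peaks and both tissues. This held for Ube3a, listed as maternal though read from both copies in most cells other than neurons. It also held for Inpp5f, listed as paternal for its transcript in brain. Over all peaks tested, 5.76% were higher in brain, 4.39% higher in lung and the median was 0.07; whether these groups differ was not tested. In the gene sums, 2 genes (Peg3 and Meg3) were higher in brain and 1 (Trappc9) higher in lung of the 24 with a peak, where 5.44% of all genes were called higher in brain and 7.11% higher in lung.

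By place in the gene, 4 of the 23 gene-end peaks passed as higher in brain, and no such peak as higher in lung (6.19% and 1.63% of all gene-end peaks were), and their median log2 fold was 0.55 against 0.37 for all such peaks. Of the 31 gene-body peaks, 3 were higher in brain and 1 in lung (5.87% and 5.33% of all gene-body peaks), with a median of 0.16 against -0.20.

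Mini-bulk size, 200 against 50 nuclei averaged over both tissues, changed no imprinted peak by edgeR's quasi-likelihood test, and none of the 37466 peaks in all, nor any in DESeq2. At an unadjusted p of 0.05, 1 of the 54 imprinted peaks and 3.67% of all peaks passed. That peak was the 752 bp peak of Peg3, higher with 200 nuclei (log2 fold 0.53 ± 0.24, unadjusted p = 0.0358). The size folds of the 54 peaks ran from -1.41 to 2.48 with a median of 0.16, against 0.14 over all peaks. The number of nuclei and the way of cutting changed together, so they cannot be told apart. No tissue difference depended on size after adjustment, at an imprinted peak or any other. At an unadjusted p of 0.05, 1 of the 54 imprinted peaks, the smaller one of Peg13 (interaction log2 -4.04 ± 1.83, unadjusted p = 0.0331), and 4.15% of all peaks passed. The spread was widest in lung with 50 nuclei, where the median coefficient of variation of the 54 peaks was 93.0%, against 39.5% in lung with 200 nuclei, 44.1% in brain with 200 nuclei and 38.5% in brain with 50 nuclei. Over all nuclear peaks the medians were near these, at 94.6%, 34.1%, 38.6% and 38.5% in the same order. The brain groups hold 2 libraries each and the lung groups 3.

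A further 44 imprinted genes outside the list gave 77 peaks at 27 genes, of which 2 passed as higher in brain, 0 as higher in lung, with a median log2 fold of 0.48. As shares of the 77 both lie below the 5.76% and 4.39% of all peaks. One lay in Kcnq1, a potassium channel gene whose intron hosts the Kcnq1ot1 start (chr7:143153957-143154146), at 36.5 ± 7.91 RPM in brain and 9.06 ± 10.4 RPM in lung (log2 fold 2.91 ± 0.74, adjusted p = 0.00866). The other lay at Qpct, a glutaminyl cyclase gene (chr17:79052087-79052216), at 14.3 ± 10.6 RPM in brain and 1.65 ± 2.91 RPM in lung (log2 fold 4.31 ± 1.37, adjusted p = 0.0370). The Qpct peak held 23 brain and 27 lung reads, and the groups overlapped, at a lowest brain value of 2.51 RPM and a highest lung value of 7.15 RPM. No lung library of 50 nuclei had a read there, so this fold depends on the prior count of the fit. The 24 genes that set or keep imprints, among them DNA methyltransferases, Zfp57, Trim28 and the Tet enzymes, gave 48 peaks at 19 genes, with 3 higher in brain, 1 in lung and a median of 0.18, beside the same shares of all peaks. The 3 lay in Tet1 (60.2 ± 17.5 RPM in brain and 12.5 ± 7.14 RPM in lung, log2 fold 2.25 ± 0.53, adjusted p = 0.00425, and a neighbour at 10.1 ± 9.93 RPM and 0.401 ± 0.6249 RPM, adjusted p = 0.0271) and Tet2 (17.7 ± 2.98 RPM in brain and 3.65 ± 4.31 RPM in lung, adjusted p = 0.0271), which oxidise methylated cytosine. As at Qpct, no lung library of 50 nuclei had a read at the Tet2 peak (27 brain and 42 lung reads) or the smaller Tet1 peak (15 and 6 reads). The 1 higher in lung lay near Naa10, an N-terminal acetyltransferase gene, at 55.2 ± 3.27 RPM in brain and 123 ± 37.0 RPM in lung (log2 fold -1.12 ± 0.30, adjusted p = 0.0117).

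For comparison, 10 of 15 peaks at the neuronal markers were higher in brain (median log2 fold 4.29), 4 of 13 at oligodendrocyte markers (0.59) and none of 7 at astrocyte markers (-0.65). At endothelial markers 18 of 44 peaks were higher in lung (-1.68), and at lung epithelial and mesenchymal markers 12 of 34 (-2.02). None of 4 immune peaks passed (0.33), and of 27 housekeeping peaks 1, at B2m, was higher in lung (0.13). The summed level of the 54 imprinted peaks was 1665 to 1776 RPM in brain libraries and 1207 to 1532 RPM in lung libraries.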

How the data were processed

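ATAC-seq libraries of laser-captured nuclei were compared in 10 samples: brain with 200 and 50 nuclei (n = 2 each) and lung with 200 and 50 nuclei (n = 3 each). The authors' deposited values are raw read counts per peak on mm10, as whole numbers without normalization. Per the submitters' processing notes, MACS2 2.2.7.1, Bowtie2 2.4.5, Trimmomatic 0.36, SAMtools 1.14, Picard, bcl2fastq 2.20, R 4.1.0 and deepTools 3.1.3 were used, in roles that are not stated there. For peak merging, counting, duplicate removal and the Tn5 shift, the steps are not given in the sources used. Duplicates left in would raise the spread of libraries from few nuclei, and peaks called mainly from deeper libraries would favour their tissue. Peak coordinates are printed as deposited, without knowing if starts count from 0 or 1. Widths are end minus start, while bases inside promoter windows count both ends. The edge of a stretch in capitals may therefore be off by 1 base.

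Peaks were assigned to genes of RefSeq GRCm38.p6 (Nespas by its synonym). All peaks with at least 10 reads over the 10 libraries were tested in edgeR 4.0.16 (R 4.3.3) with quasi-likelihood F tests, TMM scaling, 4 group means and Benjamini-Hochberg adjustment over all peaks at 0.05. The 2 mitochondrial peaks were in this fit, with nuclear totals as an alternative scaling, and gene sums added the reads of all peaks of a gene. The common dispersion was 0.350. A log2 fold is brain over lung averaged over both sizes. DESeq2 1.42.0, other scalings, filters, assignments and left-out libraries were alternatives.

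Peaks named with values were those called, the peak of each gene with the highest mean RPM over the 10 libraries, genes called in gene sums, and called peaks of the related lists. Other peaks named, such as Peg3 peaks 2 and 4, Trappc9 peaks 2, 4, 5 and 7, Grb10 peak 1, Airn peak 1, Gnas peak 3, the third Inpp5f peak, the smaller peaks of Impact and Peg13 and the peaks near Rasgrf1 and Copg2, were chosen after their values were seen. The members and gene lists were chosen with earlier results of these data known.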

Additional observations from a re-analysis of the deposited data

Results flagged for a closer look

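In 8 of 56 sets of values (28 named peaks, in brain and in lung) the highest or lowest library stood far from the others of its tissue. The test used passes by chance in about 1 of 20 sets of normal values with equal spread. Low counts from libraries of both sizes are pooled here, so that rate does not apply and the 8 are not compared with it. The Airn peak below entered as its gene's highest mean only through the flagged value. Libraries of 50 nuclei gave all 8, and lung library 3 of 50 nuclei gave 5 of them. That library had 91.3 RPM at the Airn peak with the highest mean (others 5.12 to 14.6), 60.2 RPM at the start of Zrsr1 (others 24.1 to 27.7), 71.2 RPM at the wide Impact peak (others 129 to 161), 0 RPM at the Nnat peak (others 9.97 to 14.7) and 0 RPM at the Gnas peak with the highest mean (others 27.2 to 38.04). Lung library 2 of 50 nuclei had 20.5 RPM, from 7 reads, at the Copg2 peak (others 0 to 4.27). Lung library 1 of 50 nuclei had 12.8 RPM, from 9 reads, at the start peak of Ndn (others 0 to 2.93). Brain library 1 of 50 nuclei had 109.5 RPM at the Kcnq1ot1 start (others 60.2 to 62.7).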

How the results depend on the processing

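Low counts limit most imprinted peaks in brain, since the median level of 13.3 RPM is a few reads per brain library. The sparse lung libraries did not have the fewest nuclear reads. Lung library 3 of 50 nuclei had 547792 and reads in 56.1% of nuclear peaks, where brain library 2 of 50 nuclei had 319307 and reads in 90.1%. The cause of this was not tested. The calls at Peg3 peaks 3 and 5 and the Peg3 gene sum held under every alternative, and the Trappc9 peak 8 call under every one but the left-out library given above. Other called peaks lost their call without 1 of several libraries, as given beside them. They also lost it in the edgeR fit with a replicate block (adjusted p = 0.0505 to 0.159), as did the Meg3 gene sum (0.161). The calls of Ndn and Inpp5f ended as well without both sparse lung libraries and in the additive fit. Without single libraries, all calls ran from 1585 to 7023 (higher in brain 877 to 5240, in lung 665 to 3240), imprinted peaks higher in brain from 2 to 13 and in lung from 0 to 3, all gene-sum calls from 733 to 2541, and imprinted gene sums higher in brain from 1 to 5 and in lung from 0 to 1.

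Without both sparse lung libraries of 50 nuclei, calls numbered 8364 (3727 in brain, 4637 in lung), imprinted peaks higher in lung 3, size calls 8, interaction calls 3, and gene-sum calls 3236 with 5 imprinted genes higher in brain. The filterByExpr filter gave 2033 calls (828 in brain), and kept 48 of the 54 imprinted peaks. The Impact gene sum passed with nuclear totals, in DESeq2 and without both sparse libraries (log2 fold 0.48 to 0.61), and the Zim1 gene sum in 5 settings. DESeq2 gave 3386 peaks higher in brain, 10 imprinted peaks higher in brain and 6 imprinted gene sums. RLE scaling and nuclear totals each gave 2 interaction calls. Median log2 folds of all peaks ran from 0.07 to 0.17 across scalings, and reached 0.42 without lung library 1 of 50 nuclei. The cause of these shifts was not tested.

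Same-numbered libraries did not visibly deviate together (correlations -0.030 to 0.020 over 13 pairs). This cannot decide whether the numbers pair the libraries, because most peaks hold few reads and counting noise could hide a shared deviation. In groups of 2 libraries the deviations also mirror each other, so the 13 pairs are not independent. A replicate block gave 2042 calls (970 in brain, 1072 in lung), 2 imprinted peaks higher in brain, 2 size calls, 2 interaction calls, and 930 gene-sum calls with 1 imprinted gene higher in brain. Under the block the Cdkn1c fold turned to 0.43 (gene sum 0.28), and the Igf2r gene sum ran from -0.14 (without brain library 2 of 200 nuclei) to 1.21 over left-out libraries. None of these passed a test.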
